A study of Mus musculus with 40 samples.

Results

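The genes described here are the D cyclins Ccnd2 and Ccnd3, their kinases Cdk4 and Cdk6, the CIP/KIP inhibitors Cdkn1a and Cdkn1b, the INK4 inhibitors Cdkn2c and Cdkn2d, the pocket protein gene Rb1 and cyclin G2 (Ccng2). They were chosen by symbol and are 10 of the 21950 genes in an RNA-seq table of mouse T cells. The table held 24 libraries in 8 groups of 3 replicates: resting and activated conventional CD4 T cells (Tconvs), resting and activated thymus-derived regulatory T cells (tTregs, labelled nTreg), resting in vitro induced regulatory T cells (iTregs), restimulated iTregs, and iTregs restimulated with an ORAI channel inhibitor (labelled ORAIinh) or with cyclosporine A (CsA). All cells came from C57BL/6 mice that carry a fluorescent Foxp3 reporter. Tconvs and tTregs were sorted from the spleens of mice aged 2 to 4 months. iTregs were made from naive Foxp3- T cells of mice aged 6 weeks by 4 days on plate-bound anti-CD3 and anti-CD28 with IL-2 and TGF-β at 2 ng per ml. They were then sorted on the reporter and rested for 1 day in IL-2. Restimulation again used plate-bound anti-CD3 and anti-CD28. How long the cells of the RNA-seq libraries were activated or restimulated is not given in the sources used here. Whether the Tconv and tTreg libraries were rested after sorting is not given either. Resting iTregs therefore differ from Tconvs and tTregs in donor age, induction culture, earlier activation and TGF-β at once, and in comparisons with iTregs these cannot be told apart. The labels do not say that replicates came from separate animals, so p-values measure the spread between these libraries, which may be technical.

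D-type cyclins bind CDK4 and CDK6, and the complexes phosphorylate the retinoblastoma protein RB1, which releases E2F factors and lets a cell leave G1 for S phase. INK4 proteins such as p18 (Cdkn2c) and p19 (Cdkn2d) bind the kinases and block cyclin binding. The CIP/KIP proteins p21 (Cdkn1a) and p27 (Cdkn1b) inhibit cyclin-CDK2 complexes and also help to assemble cyclin D complexes. In quiescent T cells p27 is abundant, and stimulation through the T cell receptor and CD28 is known to induce cyclin D2 and CDK6 and to remove p27. Cdkn1a is a textbook target of p53, and Cdkn1b and Ccng2 are known targets of FOXO factors, which T cell receptor signalling through AKT keeps out of the nucleus. Ccng2 is an unusual cyclin linked to cell cycle arrest.

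Values are normalized counts, which are read counts divided by a size factor for each library, so that libraries of unequal depth share a scale. Fold changes are differences of log2(normalized count + 1) between group means of 3 libraries, tested with limma over all genes. A gene was called changed at a Benjamini-Hochberg adjusted p below 0.05 together with an absolute log2 fold change above 0.5. Libraries held between 5256800 and 15685234 reads on genes, and the tTreg groups had the lowest medians (7582032 at rest and 7131717 after activation). All 10 genes passed the filter on low values, and the fewest reads behind any value were the 17 for Cdkn1a in resting Tconv replicate 1. A floor of 3 reads was worth 2.12 to 5.45 normalized counts. The labels matched the markers: Foxp3 stood at 10.4 ± 0.83 normalized counts in resting Tconvs, 7537 ± 285 in resting tTregs and 1280 ± 88.4 in resting iTregs (SD, n = 3). Markers of other cells were low. Of 4 B cell markers, Ms4a1 was at 0 in all 24 libraries, and the list summed to 128 to 136 normalized counts in resting tTregs against 20.2 to 31.9 in resting Tconvs, nearly all from Cd79b. The 4 myeloid markers summed to at most 25.3 normalized counts in any library, and of the CD8 markers Cd8a stayed between 0.878 and 13.2 while Cd8b1 reached 234. The 5 erythroid and platelet markers summed to 21.1 to 26.2 in resting iTregs, against at most 2.28 in the Tconv and tTreg libraries and 11.4 in the restimulated ones. Both NK markers were at 0 in all tTreg and iTreg libraries. They summed to 19.3 to 30.9 in resting Tconvs and 0.898 to 3.54 in activated Tconvs. The part of these cells in the results below was not tested. In bulk libraries, fewer cells that express a gene and less of its RNA per cell cannot be told apart.

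The 10 genes lie on 7 chromosomes of GRCm38 and their values are sums over annotated exons. Ccnd2 is at chr6:127125162-127152193 and Cdkn1b at chr6:134920401-134925513. Ccnd3 is at chr17:47505051-47599691 and Cdkn1a at chr17:29090976-29100727. Cdk6 is at chr5:3341485-3531008 and Ccng2 at chr5:93267257-93276231. Cdk4 is at chr10:127063534-127067920, Cdkn2c at chr4:109660876-109667189, Cdkn2d at chr9:21288410-21291407 and Rb1 at chr14:73183673-73325822. The library method does not mark strand, so reads from exons shared with a gene on the other strand cannot be assigned by sequence. Such exons made up 19.7% of the exon bases of Cdk4 (shared with Tspan31), 14.9% of those of Rb1 (Rcbtb2 and Lpar6), 7.87% of Ccnd2, 7.68% of Cdkn1a, 4.11% of Ccnd3 (Bysl) and 2.63% of Cdk6. Cdkn1b, Cdkn2c, Cdkn2d and Ccng2 shared none.

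Promoter sequences from RefSeq (GRCm38.p6) were at hand for 8 of the 10 genes, and 4 are shown because of the Tconv activation values below: those of the 2 kinases, which rose together, and of the 2 CIP/KIP inhibitors, which moved in opposite directions. Each begins 250 bases upstream of an annotated start and is printed 5′ to 3′ up to the first annotated exon base. All 4 genes lie on the plus strand. In the kinases, capitals mark the E-box CACGTG, which MYC and USF factors can bind. In Cdkn1a they mark matches to the p53 half-site, and the Cdkn1b stretch held no match to any motif searched.
Cdk4, chr10:127063285-127063533: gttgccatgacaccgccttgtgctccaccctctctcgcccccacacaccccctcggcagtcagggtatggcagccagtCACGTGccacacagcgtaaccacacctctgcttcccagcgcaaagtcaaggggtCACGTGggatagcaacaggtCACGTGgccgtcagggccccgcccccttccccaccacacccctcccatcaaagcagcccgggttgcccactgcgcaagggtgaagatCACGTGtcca
Cdk6, chr5:3343643-3343731: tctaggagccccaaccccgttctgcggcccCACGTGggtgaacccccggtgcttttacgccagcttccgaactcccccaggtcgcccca
Cdkn1a, chr17:29090729-29090975: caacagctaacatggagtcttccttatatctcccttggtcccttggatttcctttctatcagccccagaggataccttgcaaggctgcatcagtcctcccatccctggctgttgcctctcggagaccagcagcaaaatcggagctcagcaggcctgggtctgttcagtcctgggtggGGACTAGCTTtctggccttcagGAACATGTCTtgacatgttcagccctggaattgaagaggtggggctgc
Cdkn1b, chr6:134920151-134920400: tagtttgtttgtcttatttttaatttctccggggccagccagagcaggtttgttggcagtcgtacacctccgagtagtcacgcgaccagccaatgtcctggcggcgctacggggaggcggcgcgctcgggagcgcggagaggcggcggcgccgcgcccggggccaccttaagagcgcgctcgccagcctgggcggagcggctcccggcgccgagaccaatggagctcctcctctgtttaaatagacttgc

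Motifs were searched on both strands of the 250 bases upstream of 32536 RefSeq starts: the E-box CACGTG, the E2F core TTCCCGC (or its forms TTCGCGC or also TTGCCGC or else TTGGCGC), the FOXO motif TGTTTAC, the STAT motif TTCNNNGAA, the NFAT core GGAAA and the p53 half-site by name. The Cdk4 window held 4 E-boxes, whose first bases lie 172, 118, 98 and 11 bases upstream of the start. An E-box was present in 6.04% of all windows, and 4 or more in 0.0215% (7 windows). Cdk6 held 1 E-box, 220 bases upstream. The Cdkn1a window, that of the more upstream of its 2 RefSeq starts, held 2 p53 half-sites, 73 and 51 bases upstream, against 7.12% of windows with at least 1 and 0.258% with at least 2. It also held an NFAT core 203 bases upstream, which 55.7% of windows share, and the matches did not overlap. These are matches of letters only.

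Across the 8 groups, these arrangements of the G1 genes stood out in the levels. Resting Tconvs were low in Ccnd2, Cdk6 and Cdkn1a and high in Cdkn1b, Rb1 and Ccng2. Activated Tconvs were high in Ccnd2 and Cdk6 and low in Cdkn1b, Rb1 and Ccng2. tTregs held intermediate Ccnd2 and Cdk6 with high Cdkn1b whether or not they had been activated, and all iTreg groups were high in Ccnd3, Cdk4, Cdkn1a and Cdkn2d. Activation changed 9 of the 10 genes in Tconvs (4 higher, 5 lower), where 50.2% of all genes tested were called (24.5% higher, 25.7% lower). In tTregs it changed 1 gene, Cdkn1a, which was higher, against a background of 21.9% (11.9% higher, 10.0% lower). The difference between the 2 responses, tested as an interaction, was called for 9 of the 10 genes (4 more positive and 5 more negative in Tconvs), every gene but Ccnd3, where 34.7% of all genes were called (17.0% more positive, 17.7% more negative). Comparisons between groups that share libraries are not independent, and the Tconv and tTreg responses have no library in common. The median log2 fold change of the 10 genes was -0.27 in Tconvs and 0.27 in tTregs, against -0.04 and 0 over all genes, since rises and falls were mixed.

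**Figure D1:**
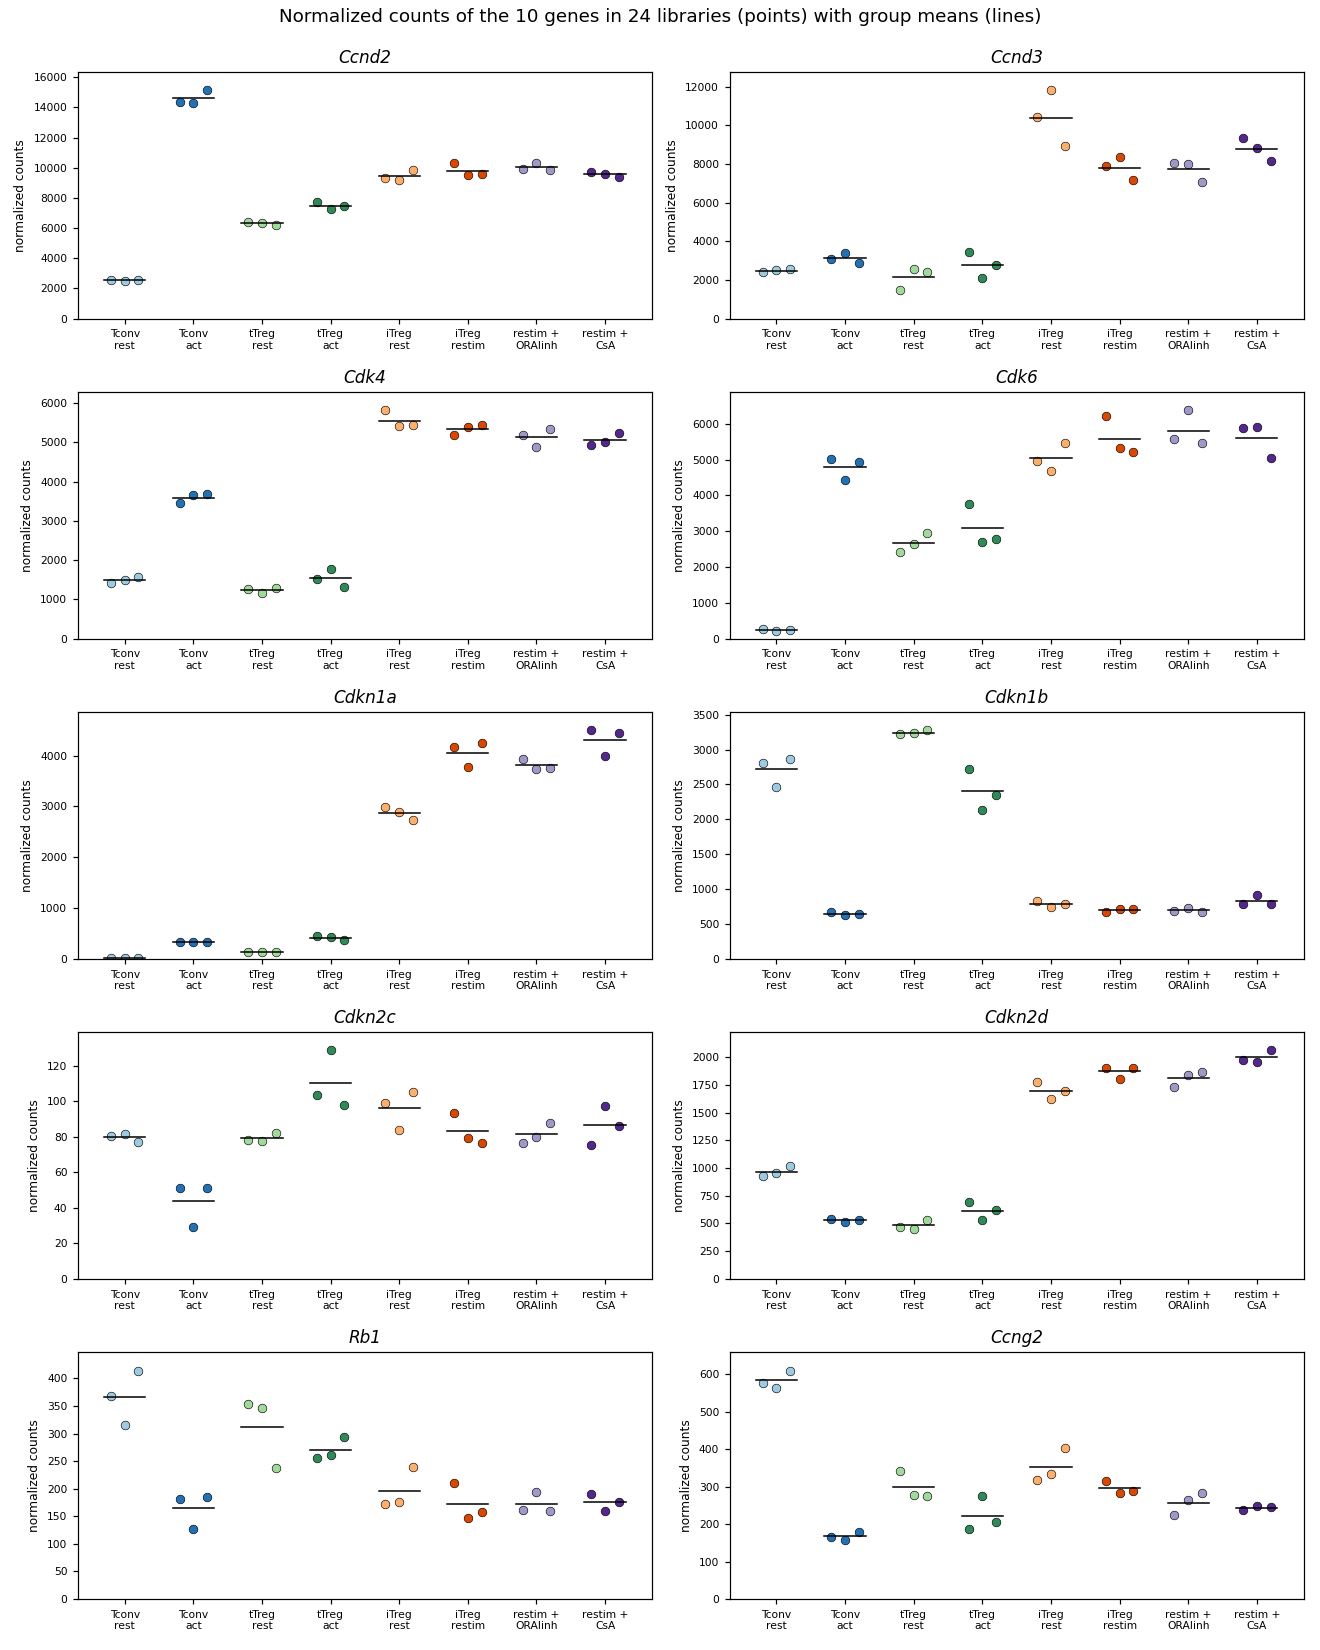
Each panel plots the normalized counts (linear axis from 0) of 1 gene in the 24 libraries, with 3 points for each group and a line at the group mean. Cdk6 and Ccnd2 jump between resting and activated Tconvs and differ far less between resting and activated tTregs, and Cdkn1a in the 4 iTreg groups, from 2733 upwards, sits above every Tconv and tTreg library.

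Ccnd2, the cyclin D known to be induced on T cell stimulation, showed the tightest replicates of the set. Its normalized counts were 2533, 2514 and 2578 in resting Tconvs and 14377, 14273 and 15143 in activated Tconvs. In tTregs they were 6378, 6365 and 6223 at rest and 7726, 7261 and 7451 after activation. The groups did not overlap in either cell type, but the rise in Tconvs was 5.74-fold (log2 2.52 ± 0.061 SE, limma adjusted p = 1.86e-13) and the tTreg difference was 0.24 ± 0.061 on the log2 scale (adjusted p = 0.00723), below the fold threshold. The responses differed by 2.28 ± 0.086 on the log2 scale (limma adjusted p = 1.1e-10). Resting tTregs already held 2.49-fold more Ccnd2 than resting Tconvs (log2 1.31 ± 0.061, limma adjusted p = 1.82e-10).

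Ccnd2 in resting iTregs was 9323, 9197 and 9821 normalized counts, between activated tTregs and activated Tconvs. That was 3.71-fold above resting Tconvs (log2 1.89 ± 0.061, limma adjusted p = 9.64e-13) and lower than in activated Tconvs by a log2 difference of -0.63 ± 0.061 (limma adjusted p = 6.12e-07). Over resting tTregs the difference was 0.58 ± 0.061 (adjusted p = 6.04e-07). Both of the last calls were lost under quantile normalization, at -0.41 and 0.19, where the median of all genes stood at -0.11 and -0.10. The 9 libraries of restimulated iTregs, with or without inhibitor, lay between 9404 and 10316, and restimulation gave a log2 difference of 0.05 ± 0.049 with a 95% interval from -0.05 to 0.16.

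Ccnd3, the other D cyclin of T cells, was higher in iTregs than in the other cells, and its activation responses were not called. Resting and activated Tconvs held 2490 ± 88.0 and 3123 ± 264 normalized counts, and resting and activated tTregs 2146 ± 597 and 2774 ± 681 (SD, n = 3). The tTreg libraries were widely spread: resting replicate 1 was at 1462 while the other two were at 2563 and 2412, and activated replicate 2 was at 2085 beside 3446 and 2792. Neither activation response was called (log2 0.32 ± 0.20, adjusted p = 0.168, and 0.38 ± 0.20, adjusted p = 0.145), although the tTreg one was called without activated replicate 2, at 0.57. The interaction was -0.06 ± 0.28 (limma adjusted p = 0.889), with an interval of -0.65 to 0.54.

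Resting iTregs held 10453, 11820 and 8918 normalized counts of Ccnd3, above every Tconv and tTreg library. The increase was 4.15-fold over resting Tconvs (log2 2.05 ± 0.20, limma adjusted p = 1.96e-07), 3.31-fold over activated Tconvs (1.73 ± 0.20, adjusted p = 3.22e-06) and 4.96-fold over resting tTregs (2.31 ± 0.20, adjusted p = 5.9e-08). Restimulated iTregs were at 7873, 8385 and 7155, below all 3 resting libraries. The difference of -0.41 ± 0.093 had a limma adjusted p of 0.00417 but missed the fold threshold, which it passed at -0.51 without resting iTreg replicate 3, the lowest of the 3. Per kilobase of exon, the level of Ccnd2 over that of Ccnd3 was 0.953 ± 0.0299 for resting Tconvs and 4.39 ± 0.498 once they were activated (SD, n = 3). It was 2.93 ± 0.986 and 2.61 ± 0.588 for resting and activated tTregs, and 0.861 ± 0.153 for resting iTregs. The 2 cyclins were thus at near-equal levels per length in resting Tconvs and iTregs, and Ccnd2 was the more abundant in the other groups that were not restimulated.

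Cdk4, a catalytic partner of both cyclins, was at 1411, 1496 and 1578 normalized counts in resting Tconvs and 3445, 3653 and 3674 after activation. tTregs held 1275, 1161 and 1280 at rest and 1523, 1773 and 1317 after activation. The Tconv rise was 2.40-fold, with a 95% interval of 1.06 to 1.47 on the log2 scale (limma adjusted p = 2.51e-08). The tTreg difference, at 0.30 ± 0.094 (adjusted p = 0.0229), stayed under the fold threshold, and the responses differed by 0.96 ± 0.13 (adjusted p = 5.18e-05). Resting iTregs, at 5813, 5413 and 5425, exceeded activated Tconvs by 0.63 ± 0.094 (adjusted p = 5.06e-05), resting Tconvs by 1.89 ± 0.094 (adjusted p = 1.23e-10) and resting tTregs by 2.16 ± 0.094 (adjusted p = 3.77e-11).

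Cdk6, the second G1 kinase, had the sharpest activation response of the 10 genes in Tconvs. Resting Tconvs held 267, 229 and 250 normalized counts and activated Tconvs 5023, 4440 and 4943, a 19.2-fold rise (log2 4.27 ± 0.12, limma adjusted p = 7.59e-13). Resting tTregs held 2408, 2650 and 2955, and activated tTregs 3753, 2710.5 and 2797. These tTreg groups overlapped, and the log2 difference was 0.20 ± 0.12 (limma adjusted p = 0.215). The responses thus differed by 4.07 ± 0.17 (limma adjusted p = 2.38e-10). Before any activation, tTregs exceeded Tconvs in Cdk6 by 10.7-fold (log2 3.42 ± 0.12, limma adjusted p = 8.03e-12).

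Resting iTregs, at 4973, 4670 and 5449 normalized counts of Cdk6, overlapped activated Tconvs, with a log2 difference of 0.07 ± 0.12 and an interval from -0.19 to 0.32. They stood 20.1-fold above resting Tconvs (log2 4.33 ± 0.12, limma adjusted p = 2.09e-13) and 1.89-fold above resting tTregs (0.92 ± 0.12, adjusted p = 6.07e-06). Per kilobase of exon Cdk6 was the less abundant kinase in every group, from 0.0388 ± 0.00457 of the level of Cdk4 in resting Tconvs to 0.501 ± 0.0546 in resting tTregs. Activated Tconvs stood at 0.311 ± 0.0282, and the 4 iTreg groups had means between 0.211 and 0.263. The annotated exons span 13989 bases for Cdk6 and 3249 for Cdk4. Without this length correction the log2 ratio of Cdk6 to Cdk4 was 1.10 and 1.00 in resting and activated tTregs and 0.42 in activated Tconvs. It was -2.59 in resting Tconvs, -0.14 in resting iTregs and between 0.06 and 0.17 in the restimulated groups. Outside resting Tconvs and resting iTregs, the order of the kinases thus depended on the correction. The kinase balance of tTregs, with the highest share of Cdk6, was already present at rest.

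**Figure D2:**
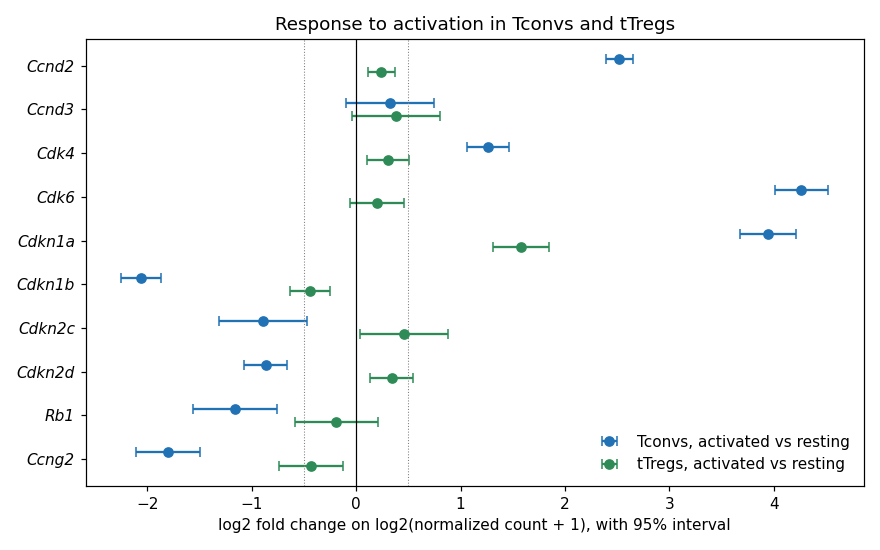
Points give the log2 fold change of each gene on activation, on log2(normalized count + 1), in Tconvs (blue) and tTregs (green), with bars for the 95% interval and dotted lines at the fold threshold of 0.5. Tconv responses run from -2.06 (Cdkn1b) to 4.27 (Cdk6), and the tTreg point estimates lie within the dotted lines for every gene but Cdkn1a.

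Cdkn1a, which encodes p21, spanned the widest range: its lowest and highest group means were 208-fold apart. Resting Tconvs held 17.5, 25.3 and 19.3 normalized counts and activated Tconvs 326, 338 and 324. Resting tTregs held 142, 127 and 144, and activated tTregs 442, 434 and 365. Unlike the other members, Cdkn1a was called on activation in both cell types, by 15.4-fold in Tconvs (log2 3.94 ± 0.13, limma adjusted p = 2.67e-12) and 2.98-fold in tTregs (1.58 ± 0.13, adjusted p = 9.84e-07). The response was larger in Tconvs, by 2.37 ± 0.18 (limma adjusted p = 1.25e-07), from a resting level that was 6.45-fold lower than in tTregs (log2 difference of tTregs over Tconvs 2.69 ± 0.13, adjusted p = 2.03e-10). After activation the tTreg libraries were all above the Tconv libraries, a pair of groups that was not tested.

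In resting iTregs Cdkn1a reached 2991, 2898 and 2733 normalized counts. This was 134-fold above resting Tconvs (log2 7.06 ± 0.13, limma adjusted p = 2.14e-15), 8.70-fold above activated Tconvs (3.12 ± 0.13, adjusted p = 5.26e-11) and 20.7-fold above resting tTregs (4.37 ± 0.13, adjusted p = 6.67e-13). The first of these was larger than the change of 99.2% of the genes tested. Restimulation took the values to 4162, 3772 and 4242, with no overlap with the resting libraries. The log2 difference of 0.497 ± 0.063 (limma adjusted p = 3e-05) fell just below the threshold of 0.5. It passed at 0.51 with edgeR and with DESeq2 on the recovered reads, at 0.50 with size factors recomputed over the iTreg libraries, and at 0.53, 0.50 or 0.55 without resting replicate 1, resting replicate 2 or restimulated replicate 2.

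Cdkn1b, which encodes p27, ran the other way. Resting Tconvs held 2813, 2464 and 2871 normalized counts and activated Tconvs 668, 633 and 646, a 4.17-fold fall (log2 -2.06 ± 0.090, limma adjusted p = 8.09e-11). Resting tTregs held 3218, 3232 and 3275, the highest level of any group, and activated tTregs 2727, 2127 and 2352. The tTreg groups did not overlap, but the difference of -0.44 ± 0.090 (adjusted p = 0.00191) was under the fold threshold, which it passed at -0.54 without activated tTreg replicate 1 and at -0.55 under quantile normalization. Activated tTreg replicate 1 (2727) lay within the range of resting Tconvs, and replicates 2 and 3 (2127 and 2352) lay below it. That pair of groups was not tested. The responses differed by -1.62 ± 0.13 (limma adjusted p = 2.03e-07).

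Resting iTregs held 828, 738 and 790 normalized counts of Cdkn1b, 3.45-fold below resting Tconvs (log2 -1.79 ± 0.090, limma adjusted p = 1.4e-10) and 4.13-fold below resting tTregs (-2.04 ± 0.090, adjusted p = 4.26e-11). Against activated Tconvs the difference was 0.27 ± 0.090 (adjusted p = 0.0181), under the fold threshold. The balance of the 2 CIP/KIP transcripts turned over between groups. Per kilobase of exon, Cdkn1b over Cdkn1a was 106 ± 26.3 for resting Tconvs and 1.54 ± 0.0707 once activated (SD, n = 3). For tTregs the ratio was 18.4 ± 1.23 at rest and 4.56 ± 0.644 after activation, and for resting iTregs it was 0.214 ± 0.0135. Restimulated iTregs were at 0.135 ± 0.0111, so that Cdkn1a was the more abundant transcript only in the iTreg groups, of the 8 measured. The sum of both inhibitors over the sum of both D cyclins, per kilobase, was 1.09 ± 0.0848 for Tconvs at rest and 0.123 ± 0.0033 after activation, the lowest of the 8 groups. It was 0.822 ± 0.0579 and 0.579 ± 0.0194 for tTregs at rest and after activation, and 0.449 ± 0.0253 and 0.672 ± 0.0597 for iTregs at rest and after restimulation.

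**Figure D3:**
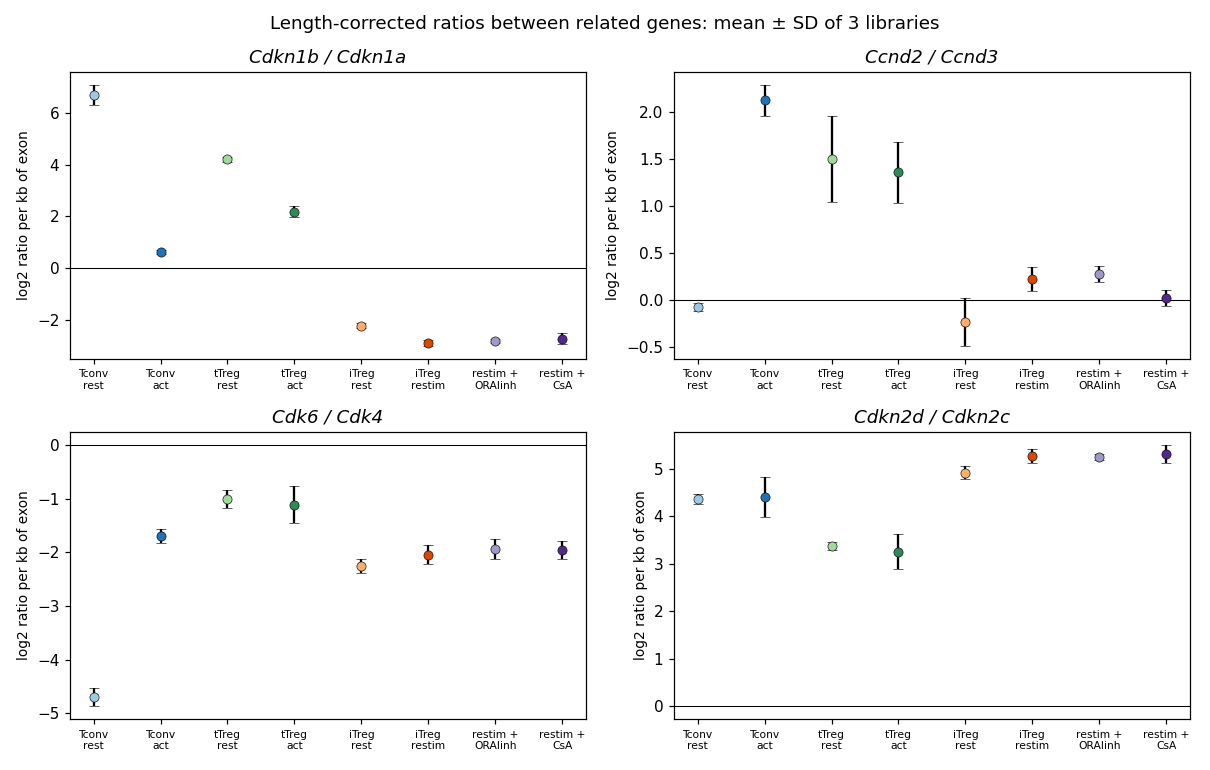
Panels plot the log2 ratio of the levels of 2 related genes, each per kilobase of exon, as the mean with SD of 3 libraries in each of the 8 groups, and a line marks equal levels. Cdkn1b over Cdkn1a passes from above 6 in resting Tconvs to below -2 in the iTreg groups, and Cdk6 over Cdk4 is below 0 in all 8 groups.

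Of the INK4 inhibitors, Cdkn2d (p19) was the abundant one and Cdkn2c (p18) was near 100 normalized counts or lower in most groups. Cdkn2d was 927, 958 and 1020 in resting Tconvs and 540, 514 and 535 in activated Tconvs, a 1.83-fold fall (log2 -0.87 ± 0.097, limma adjusted p = 1.9e-06). In tTregs it went from 470, 453 and 534 to 698, 535 and 618, a difference of 0.34 ± 0.097 (adjusted p = 0.0148) under the fold threshold. The responses thus had opposite signs and differed by -1.21 ± 0.14 (limma adjusted p = 7.83e-06). Resting tTregs held 1.99-fold less Cdkn2d than resting Tconvs (log2 -0.996 ± 0.097, adjusted p = 7.16e-07).

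Resting iTregs, at 1779, 1618 and 1697 normalized counts of Cdkn2d, were above all Tconv and tTreg libraries. The increase was 1.75-fold over resting Tconvs (log2 0.81 ± 0.097, limma adjusted p = 2.32e-06), 3.20-fold over activated Tconvs (1.68 ± 0.097, adjusted p = 2.3e-09) and 3.50-fold over resting tTregs (1.81 ± 0.097, adjusted p = 3.58e-10). Cdkn2c fell from 80.2, 81.6 and 77.2 to 51.2, 29.3 and 50.9 on Tconv activation (log2 -0.89 ± 0.20, limma adjusted p = 0.00108). Its activated tTreg values of 104, 129 and 98.1 all lay above the resting 78.0, 77.9 and 82.0, but the difference of 0.46 ± 0.20 was not called (adjusted p = 0.0825). The Cdkn2c responses differed by -1.35 ± 0.28 (limma adjusted p = 0.00137). Resting iTregs held 2.22-fold more Cdkn2c than activated Tconvs (log2 1.15 ± 0.20, adjusted p = 0.000161) and were not called against resting Tconvs (0.26 ± 0.20, adjusted p = 0.242) or resting tTregs (0.27 ± 0.20, adjusted p = 0.229).

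Rb1, the pocket protein that the kinases phosphorylate, stood at 368, 316 and 414 normalized counts in resting Tconvs and fell to 182, 127 and 185 on activation (2.24-fold, log2 -1.16 ± 0.19, limma adjusted p = 7.68e-05). Resting tTregs were at 354, 346 and 238 and activated tTregs at 256, 261 and 294, with overlap and a difference of -0.19 ± 0.19 (adjusted p = 0.464). The responses differed by -0.97 ± 0.27 (limma adjusted p = 0.00942). Resting iTregs, at 172, 176 and 239, were below resting Tconvs (log2 -0.91 ± 0.19, adjusted p = 0.000467) and resting tTregs (-0.67 ± 0.19, adjusted p = 0.00488), but 1 tTreg library overlapped with them. Against activated Tconvs the difference was 0.25 ± 0.19 (adjusted p = 0.278). Rb1 exons overlap those of Rcbtb2 and Lpar6, and the part of such reads in these values was not tested.

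Ccng2 fell from 578, 563 and 610 normalized counts in resting Tconvs to 165, 157 and 179 after activation (3.48-fold, log2 -1.80 ± 0.14, limma adjusted p = 5.05e-08). In tTregs it went from 342, 278 and 276 to 187, 276 and 205, a difference of -0.43 ± 0.14 (adjusted p = 0.0304) that passed the fold threshold only without activated replicate 2, at -0.60. The responses differed by -1.37 ± 0.20 (limma adjusted p = 9.37e-05). At rest, tTregs held 1.96-fold less Ccng2 than Tconvs (log2 -0.97 ± 0.14, adjusted p = 4.76e-05). Resting iTregs, at 317, 335 and 404, were 1.66-fold below resting Tconvs (-0.73 ± 0.14, adjusted p = 0.000287), 2.09-fold above activated Tconvs (1.07 ± 0.14, adjusted p = 1.73e-05) and overlapped resting tTregs (0.24 ± 0.14, adjusted p = 0.147).

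By comparison, then, resting tTregs and resting Tconvs differed in 5 of the 10 genes (Ccnd2, Cdk6 and Cdkn1a higher, Cdkn2d and Ccng2 lower in tTregs), where 38.6% of all genes were called (20.5% higher, 18.2% lower). Resting iTregs differed from resting Tconvs in 9 genes (6 higher, 3 lower, all but Cdkn2c; background 63.6%, with 32.8% higher and 30.8% lower), from activated Tconvs in 7 (6 higher and Ccnd2 lower; background 41.6%, with 22.9% higher and 18.7% lower) and from resting tTregs in 8 (6 higher and Cdkn1b and Rb1 lower; background 63.4%, with 32.3% higher and 31.1% lower). The genes higher in iTregs than in each of the 3 other groups were Ccnd3, Cdk4, Cdkn1a and Cdkn2d, a cyclin, a kinase, a CIP/KIP inhibitor and an INK4 inhibitor. These 3 comparisons share the resting iTreg libraries. The median log2 fold change of the 10 genes was 1.35, 0.85 and 0.75 in the 3 comparisons, against 0.02, 0.02 and 0.02 over all genes.

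**Figure D4:**
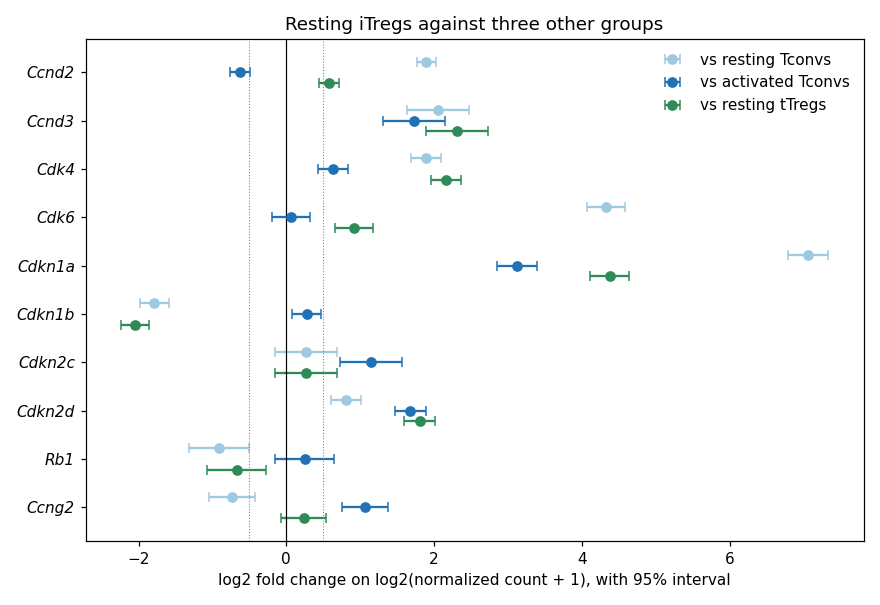
Points give the log2 fold change of resting iTregs against resting Tconvs (light blue), activated Tconvs (dark blue) and resting tTregs (green), with 95% intervals and dotted lines at the fold threshold of 0.5. Ccnd3, Cdk4, Cdkn1a and Cdkn2d lie to the right of the threshold in all 3 comparisons, and Cdkn1a against resting Tconvs reaches 7.06.

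None of the 10 genes was called by limma between restimulated and resting iTregs, where 12.8% of all genes were called (6.70% higher, 6.13% lower). Of the 10, 5 had an unadjusted p below 0.05. Here and below, the share of all genes at that unadjusted cut was not counted. Both edgeR and DESeq2 called 1, Cdkn1a. At an adjusted p below 0.05 alone, Cdkn1a and Ccnd3 passed, in opposite directions, as did 3264 of the 11105 genes tested. The intervals of the other 8 genes ran from -0.52 to 0.33, so that changes of the size seen in Tconvs for Ccnd2, Cdk6, Cdkn1b or Ccng2 lay outside them. Ccng2 was lower in restimulated iTregs in every library (315, 284 and 290), but by -0.24 ± 0.10 (limma adjusted p = 0.0975).

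The inhibitors were compared with restimulated iTregs to see whether blocking calcium entry through ORAI channels, or blocking with CsA the calcineurin that activates NFAT, altered these genes. With the ORAI inhibitor, 0 of 10 were called by limma, against 3.30% of all genes called by limma (1.50% higher, 1.79% lower). By edgeR and DESeq2 0 were called too, and 0 had an unadjusted limma p below 0.05. With CsA, 0 were called by limma, against 2.92% of all genes called by limma (1.57% higher, 1.35% lower). By edgeR and DESeq2 0 were called too, and 2 had an unadjusted limma p below 0.05 (Cdkn1b and Ccng2). Under CsA Cdkn1b was 786, 909 and 786 normalized counts, above all 3 restimulated libraries (668, 710.5 and 719), by 0.24 ± 0.073 (limma adjusted p = 0.0581). Over all 10 genes the 95% intervals against restimulation ran from -0.43 to 0.34 with the ORAI inhibitor and from -0.50 to 0.40 with CsA.

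Measured from resting iTregs, Cdkn1a was 0.41 ± 0.063 higher with the ORAI inhibitor (limma adjusted p = 0.000392, under the fold threshold) and 0.58 ± 0.063 higher with CsA (adjusted p = 1.08e-05, called). Its values were 3935, 3740 and 3758 with the ORAI inhibitor and 4497, 3997 and 4448 with CsA. Neither inhibitor brought any library back to the resting level of at most 2991. Ccng2 was lower with the ORAI inhibitor, at 225, 263 and 283 (-0.45 ± 0.10, adjusted p = 0.00806), and was called with CsA, at 237, 249 and 245 (-0.52 ± 0.10, adjusted p = 0.00247). The CsA call of Ccng2 was lost without resting replicate 3 (-0.42), without CsA replicate 1 (-0.4997) and under quantile normalization (-0.49). In all, 2 of the 10 genes were called with CsA, 1 in each direction (background 9.43%, with 5.19% higher and 4.24% lower). With the ORAI inhibitor limma called 0 (background 7.10%, with 3.97% higher and 3.13% lower), as did edgeR and DESeq2, and 5 had an unadjusted p below 0.05. Between the inhibitors limma called 0, against 0.360% of all genes called by limma (0.0991% higher, 0.261% lower). By edgeR and DESeq2 0 were called too, and 3 had an unadjusted limma p below 0.05. The largest difference between them was -0.25 ± 0.073 for Cdkn1b (ORAI inhibitor lower, adjusted p = 0.189). All these comparisons share libraries.

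**Figure D5:**
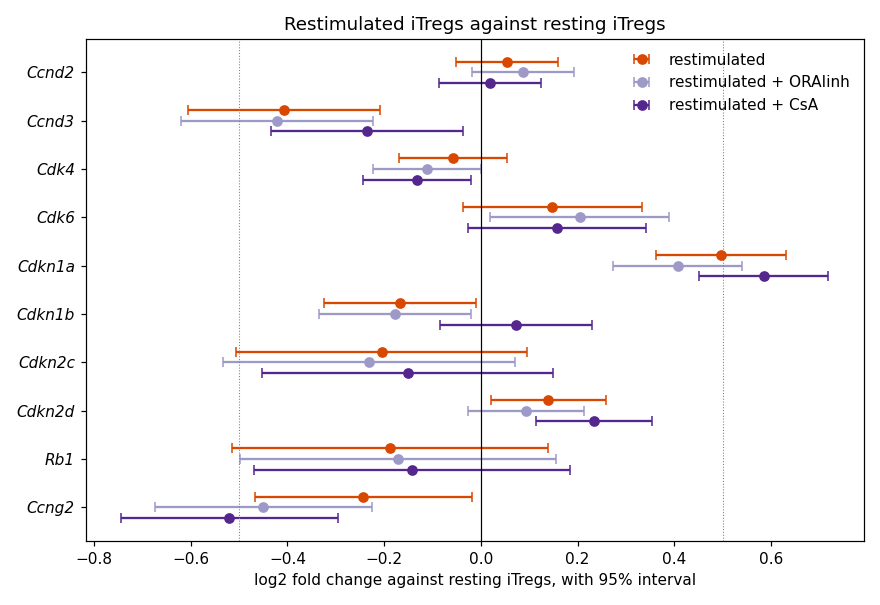
Points give the log2 fold change from resting iTregs on restimulation alone (orange), with the ORAI inhibitor (light purple) and with CsA (dark purple), with 95% intervals and dotted lines at the threshold of 0.5. All point estimates lie between -0.52 (Ccng2 with CsA) and 0.58 (Cdkn1a with CsA).

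Other genes of the same pathway, taken from lists set by function, gave a background for these values. On Tconv activation 24.5% of all genes were called higher and 25.7% lower. Of 8 other G1 cyclins, kinases and activators 5 rose, among them Ccne1 (log2 2.23) and Ccne2 (1.76), the cyclins E that drive CDK2. Of 12 pocket protein and E2F genes 6 rose, led by E2f8 (3.57), E2f7 (3.38), Tfdp1 (3.00) and E2f1 (2.75), and 2 fell. Of 5 genes of p27 turnover only Cks1b, a cofactor in the degradation of p27, was called (2.11). Of 7 FOXO and p53 branch genes, Ccng1 rose (0.66) and Gadd45a (-2.51) and Foxo3 (-0.71) fell. The list medians were 1.24, 0.50, 0.22 and -0.39 against -0.04 over all genes. Of the 3 other CDK inhibitors 2 were tested, of which limma, edgeR and DESeq2 called 0 and 0 had an unadjusted p below 0.05. The third, Cdkn2a, named here after its values were seen, was at 0 in every Tconv and tTreg library.

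In tTregs 5 of the 12 pocket protein and E2F genes rose and 1 fell, against 11.9% and 10.0% of all genes, and 4 and 1 were called by edgeR and by DESeq2. E2f8 rose by 3.68, E2f7 by 2.77 and Tfdp1 by 0.90, and E2f5 fell by 1.42 on the log2 scale. Ccne2 (1.11), Ccne1 (0.83) and Cks1b (1.74) rose as well, and Ccnd1 (-1.16) and Cdkn1c (-1.14) fell. Of the 8 other G1 genes limma called 2 higher and 1 lower, and edgeR and DESeq2 each called 1 higher and 1 lower. Of the 2 other CDK inhibitors tested edgeR called 1 lower and DESeq2 called 0. The other CDK inhibitors were low, with sums of 19.1 to 41.7 normalized counts in the tTreg libraries. Foxo1 fell by 0.71 and Mdm2 rose by 0.65. The interaction, called for 34.7% of all genes, was called for 4 of the 8 other G1 genes. These were led by Ccne1 (1.39) and Cdc25a (1.29), the phosphatase that activates CDK2. The interaction was also called for 5 of 12 pocket protein and E2F genes, with Tfdp1 at 2.10 and E2f1 at 1.92. Of the 5 p27 turnover genes limma, edgeR and DESeq2 called 0, and 2 had an unadjusted p below 0.05. The 11 cycling-cell genes summed to 8590 to 8788 normalized counts in Tconvs at rest and 36881 to 37855 after activation, and to 7554 to 8720 and 16629 to 20619 in tTregs at rest and after activation. All 11 were called higher in Tconvs and 10 in tTregs, with a more positive response in Tconvs for 7. Over all genes these shares were 24.5%, 11.9% and 17.0%. The part of a larger share of cycling cells in the G1 values was not tested.

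Resting iTregs held more RNA of most E2F branch genes. Against resting Tconvs 8 of 12 pocket protein and E2F genes were higher and 2 lower (32.8% and 30.8% of all genes). E2f8 was at 7.96, E2f7 at 6.68, Tfdp1 at 3.97 and E2f1 at 3.91. Ccne2 (4.68), Ccne1 (4.09) and Cks1b (4.87) were higher, as was Skp2 (1.45), the F-box protein that marks p27 for degradation, and Ccnd1 (-1.51) and Gadd45a (-2.54) were lower. Against activated Tconvs 9 of 12 pocket protein and E2F genes were higher and 0 lower (22.9% and 18.7% of all genes). The cycling-cell genes summed to 69957 to 72213 normalized counts in resting iTregs, the highest of the 8 groups, and to between 58513 and 66162 in the 9 restimulated libraries. On restimulation limma, edgeR and DESeq2 called 0 of the 11. In limma 8 of them had an adjusted p below 0.05 but stayed under the fold threshold. The median log2 fold change of the 11 was -0.27, against -0.01 over all genes. Of the 12 pocket protein and E2F genes E2f6 (-0.87) and E2f2 (-0.67) fell on restimulation, where 6.13% of all genes were called lower. With CsA against rest, Mki67 (-0.61) and E2f6 (-0.77) were the pathway genes called.

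The genes whose group means tracked each member most closely, over the 8 group means and 8474 genes compared, are given as a description. E2f1 was closest to Cdk4 (Pearson r = 0.999), followed by Ywhae and Apoo. Pros1 (0.994), Bysl and Plagl2 were closest to Ccnd2, Ankrd37 (0.996), Surf4 and Hmgb2 to Ccnd3, and Eml2 (0.992), Lrmp and Bcat1 to Cdk6. For the inhibitors these were Ccdc40 (0.997), Mlkl and Fabp5 for Cdkn1a, Zdhhc20 (0.994), Akna and Nbeal1 for Cdkn1b, Fam171b (0.997), Zdhhc12 and Npdc1 for Cdkn2d, and Trpv2 (0.959), Pcyt1b and Rcan3 for Cdkn2c. H2-Ob (0.990), N4bp2 and Tsc22d1 were closest to Rb1, and Thra (0.973), Tec and Hvcn1 to Ccng2. Within the set, Cdkn1b and Rb1 had r = 0.965, Ccnd2 and Cdk6 0.943, Ccnd3 and Cdk4 0.931, and Cdk4 and Cdkn1b -0.960. The 8 means include 4 of iTregs that differ little, so the points are not evenly spread.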

How the data were processed

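RNA-seq libraries of 24 of the 40 samples in the series were used, and the chromatin samples were not analysed here. Libraries were made with a modified SMART-seq2 protocol from sorted cells. Per the study's methods and the submitters' processing notes, the authors trimmed reads with cutadapt 1.18, aligned them with STAR 2.5.3 to mm10 and counted genes with RSEM 1.3.0. The values the authors deposited are a normalized signal: the reads of a gene over the size factor of its library. In each library all values were multiples of the worth of 1 read, so whole reads could be recovered for 100% of values (within 0.01 of a whole number). Replicate pairs differed by more than sampling noise (chi-square per degree of freedom 2.79 to 39.4 over 24 pairs).

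Genes that reached 10 normalized counts in 3 or more libraries of a fit were tested with limma 3.58.1 (R 4.3.3, trend in the prior variance) on log2(normalized count + 1). A fit of 15 libraries (Tconvs, tTregs and resting iTregs; 11495 genes) and a fit of 12 (all iTregs; 11105 genes) were made, with Benjamini-Hochberg adjustment over all genes tested. The thresholds are those that the study's methods give for DESeq2. The limma step was tested on simulated reads with 200 changed genes: for Tconv activation (11165 genes) it called 86 of 100 changed 2-fold, 96 of 100 changed 4-fold and 5 unchanged genes, and for iTreg restimulation (11027 genes) 83 of 100, 99 of 100 and 10. The simulated reads had the same dispersion for every gene and group and no other difference between groups. Real replicate pairs were unequally noisy (chi-square per degree of freedom 2.79 to 39.4), so these rates need not hold for the real groups. The closing section gives the alternatives, among them edgeR 4.0.16 and DESeq2 1.42.0 on the recovered reads. Floors and reads cover counting error only. Exon positions and lengths came from a GENCODE annotation of GRCm38, and promoters from RefSeq. Named genes were all 10 members and, from each pathway list, at most 4 called genes of largest change in a comparison. For likeness, the 3 genes with the highest Pearson r over the 8 group means were named. The rule for the members names symbols only, but the members and lists were chosen with earlier results of these data known. The ORAIinh label was read as the study's calcium entry inhibitor.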

Additional observations from a re-analysis of the deposited data

Results flagged for a closer look

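The response to activation differed between Tconvs and tTregs, by the interaction term of the limma fit, for 9 of the 10 genes. Tconv response minus tTreg response, on the log2 scale, was 2.28 for Ccnd2, 0.96 for Cdk4, 4.07 for Cdk6 and 2.37 for Cdkn1a. It was -1.62 for Cdkn1b, -1.35 for Cdkn2c, -1.21 for Cdkn2d, -0.97 for Rb1 and -1.37 for Ccng2. Adjusted p-values ran from 1.1e-10 (Ccnd2) to 0.00942 (Rb1), with 3 libraries in each of the 4 groups, and 34.7% of all genes tested were called in the same interaction. For Cdkn2c and Cdkn2d all activated Tconv libraries were below the resting ones. All activated tTreg libraries were above the resting ones, but neither tTreg rise was called. For Cdkn2d the closest tTreg libraries were nearly tied (534.5 activated against 534.2 resting). Groups of 3 libraries were not tested for single outlying libraries.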

How the results depend on the processing

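Alternatives were size factors recomputed for each fit, quantile normalization, pseudocounts of 0.1 and 5, no filter or a filter of 100 normalized counts, only the groups compared, all 24 libraries in 1 fit, replicate block, each library left out, no fold threshold, a fold threshold of 1 (log2), edgeR and DESeq2. Over the values of single genes under them, 2475 stayed on their side of the thresholds, 28 gained a call, 21 lost it and none of the called ones changed sign. Numbers of members called that moved by more than 1.5 times were as follows. With no fold threshold there were 6 for tTreg activation, 2 for restimulation and 3 for ORAIinh against resting iTregs. Calls over all genes rose in these comparisons too. For tTreg activation 3994 of all 11495 genes were then called. At a fold threshold of 1 there were 3 for resting tTregs against resting Tconvs (2268 of all 11495 genes). There were 5 for iTregs against resting tTregs (4750 of all genes) and 0 for CsA against resting iTregs. Within 1.5 times, that threshold gave 7 for Tconv activation (3047 of all genes) and 7 for the interaction (2046). It gave 6 for iTregs against resting Tconvs (4781) and 5 against activated Tconvs (2566). Quantile normalization gave 2 for tTreg activation (2575 of all 11495 genes) and 1 for CsA against resting iTregs (1024 of 11105). Restimulation gave 1 with recomputed size factors (1417 of 11105), with edgeR and with DESeq2. Leaving out each library gave 1 to 3 for tTreg activation, 0 to 1 for restimulation and for ORAIinh against resting iTregs, and 1 to 2 for CsA against resting iTregs. With all libraries, 21.9%, 12.8%, 7.10% and 9.43% of all genes were called in these comparisons, in this order. In the other 9 comparisons leaving out any library left the count as it was. Quantile normalization moved the median of all genes to -0.12, -0.11 and -0.10 in the 3 comparisons of resting iTregs, and called 44.99%, 42.5% and 45.3% of their changed genes higher, against 51.6%, 55.1% and 50.9%; for tTreg activation it called 49.1% higher against 54.3%.

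Correlations between the deviations of same-numbered libraries ran from -0.40 to 0.24. All 3 pairs were positive in some comparisons, but in none did every pair exceed 0.1, the bar used here, so the numbers were not taken as a pairing. Every library was closest to its own number in 3 of the 12 comparisons checked. With the replicate block the members called were 9 for Tconv activation, 1 for tTreg activation and 9 for their difference. Over all 11495 genes 5742, 2455 and 3913 were called there. The resting comparisons gave 5, 9, 7 and 8 members, against 4399, 7290, 4742 and 7271 of all genes. Restimulation gave 0 and CsA against resting iTregs 2. All these member counts are those without the block, and 0 were called in the other 4 iTreg comparisons. Depth limits Cdkn1a in resting Tconvs most, at 17 to 27 reads, and then Cdkn2c, at 34 reads in its lowest library.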
